A study of Mus musculus with 59 samples.

Results

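Floxed fed and fasted BCL6 binding regions were compared in mouse liver, from 2 peak lists of ChIP-seq, a method that sequences the DNA bound by a protein. Members of the comparison were all peaks of both lists, 17454 from the fed Bcl6 fl/fl group and 9613 from the fasted C57BL/6 group, 27067 of the 102931 peaks in the 7 lists used here. A floxed peak and a fasted peak were called matched when their centers lay within 200 bp of each other on mm10, and unmatched otherwise. The floxed mice carried loxP sites in Bcl6 but no Cre, and they ate freely; they served the study as controls of a liver knockout. The fasted mice were wild type C57BL/6 that went without food overnight. Another BCL6 list of 15642 peaks from fed wild type C57BL/6 mice gave a fed reference of the same genotype as the fasted mice. Each list pooled the libraries of 3 animals, and the strain of every group was C57BL/6, and the ages of the animals were not given in the sources used here. Feeding state differed between the floxed and fasted lists together with genotype, and these cannot be told apart in this comparison alone. The sources used here do not say whether the groups were raised or processed together. The lists hold positions without read counts, scores or values per animal, so the depth is unknown and no spread between animals could be computed and the liver label could not be checked against marker genes. Intervals below are 95% Wilson intervals and cover counting error over peaks only.

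BCL6 is a zinc finger repressor that recruits corepressors with histone deacetylase activity, and its DNA element resembles the palindrome read by STAT proteins. It is best known in germinal center B cells and follicular helper T cells. In liver it sits near genes of lipid handling, where PPARα, a nuclear receptor that binds DNA with RXR and responds to fatty acids, activates oxidation and ketone body synthesis in fasting. PPARδ is a related receptor of the same family.

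Sequences at genes that the study examined by ChIP-qPCR show the classes side by side. They are the floxed peak nearest to a TSS, or the nearest unmatched one, at 3 such genes, read from the RefSeq copy of GRCm38 (mm10) on the strand of the gene. Positions are those of the peak center, with negative values upstream. Here and below they are measured from the nearest annotated TSS, which can differ between peaks of the same gene. Capitals mark matches on either strand to the BCL6 element (TTCCTAGAA, at most 1 mismatch), the STAT palindrome (TTCNNNGAA, exact) or the AGGTCA repeat of PPAR-RXR (AGGTCANAGGTCA, at most 2 mismatches). For comparison, 200 bp windows over all floxed peaks held a BCL6 element match at 15.2% of unmatched and 17.8% of matched peaks, the palindrome at 13.4% and 15.3%, and the repeat at 10.9% and 12.1%.
Ehhadh, -532 bp from the TSS, matched, chr16:21788265-21788467: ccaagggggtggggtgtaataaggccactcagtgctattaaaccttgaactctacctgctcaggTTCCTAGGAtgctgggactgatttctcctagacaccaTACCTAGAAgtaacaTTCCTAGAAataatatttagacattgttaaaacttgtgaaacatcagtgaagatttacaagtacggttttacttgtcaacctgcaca
Ehhadh, -6555 bp from the TSS, unmatched, chr16:21794288-21794490: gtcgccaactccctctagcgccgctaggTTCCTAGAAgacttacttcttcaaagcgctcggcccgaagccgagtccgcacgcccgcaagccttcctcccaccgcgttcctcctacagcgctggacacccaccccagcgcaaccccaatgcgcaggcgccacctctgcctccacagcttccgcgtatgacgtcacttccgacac
Angptl4, 2156 bp from the TSS in intron 3, unmatched, chr17:33779318-33779520: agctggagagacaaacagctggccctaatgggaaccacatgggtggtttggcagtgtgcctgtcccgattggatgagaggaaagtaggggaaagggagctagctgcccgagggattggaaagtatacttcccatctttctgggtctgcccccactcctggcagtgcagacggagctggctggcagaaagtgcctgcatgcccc
Por, -430 bp from the TSS, unmatched, chr5:135688614-135688816: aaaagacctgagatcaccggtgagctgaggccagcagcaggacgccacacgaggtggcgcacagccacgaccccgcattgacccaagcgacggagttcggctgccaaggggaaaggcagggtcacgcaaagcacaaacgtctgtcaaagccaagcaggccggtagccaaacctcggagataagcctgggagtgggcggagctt

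The matched Ehhadh peak held 3 matches to the BCL6 element, at -33, 4 and 19 bp from its center, 1 of them exact. The unmatched Ehhadh peak held an exact BCL6 element at -69 bp from its center, and it lay at the start of a noncoding transcript. Both Ehhadh peaks were missing from the C57BL/6 fed list. The peaks of Angptl4 and Por held none of the 3 elements at the mismatches allowed, and both were in the C57BL/6 fed list.

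Fewer than 1 in 2 floxed fed peaks had a fasted counterpart. Of 17454 floxed peaks, 7727 were matched (44.3%, interval 43.5 to 45.0) and 9727 were not (55.7%, interval 55.0 to 56.5). In the other direction, 80.4% of the 9613 fasted peaks (interval 79.6 to 81.2) were matched and 1886 (19.6%) were not. The matched peaks paired off, with 7727 peaks on each side, so these 2 shares differ only because the lists differ in length. With such pairing, at most 9613 of the 17454 floxed peaks could have been matched. Their centers lay a median of 22.0 bp apart, and 6363 pairs (82.3%) were under 50 bp apart. Few peaks fell near the limit, with 43 floxed peaks whose nearest fasted center lay 150 to 200 bp away and 30 at 200 to 250 bp. For the unmatched floxed peaks the nearest fasted center was a median of 27.2 kb away, although 3087 of them (31.7%) had another fasted center within 10 kb.

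**Figure D1:**
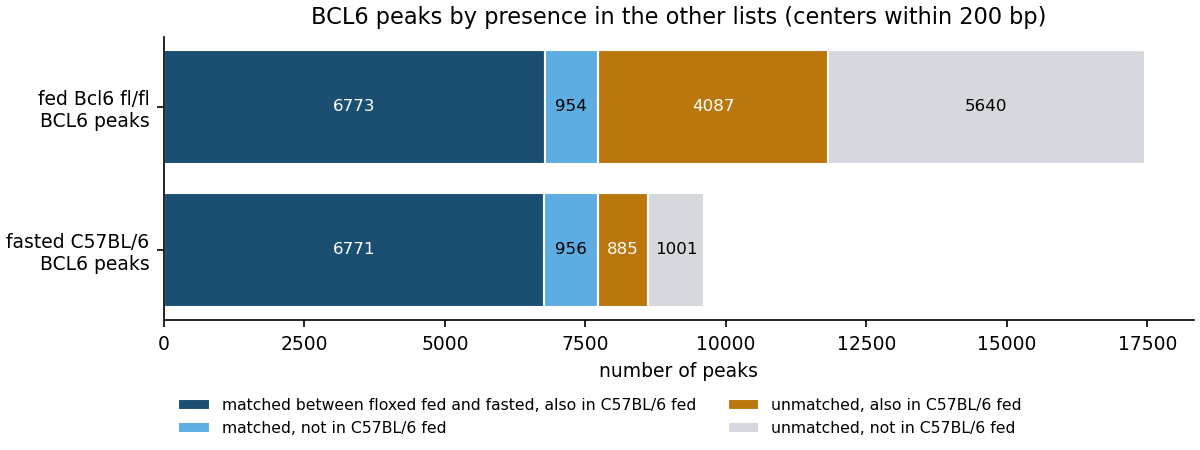
Horizontal bars show the number of BCL6 peaks in the fed Bcl6 fl/fl list and in the fasted C57BL/6 list, split by whether a peak was matched between these lists and whether the C57BL/6 fed list also held it. The 5640 floxed peaks found in neither C57BL/6 list form the second largest class of the floxed list, and the fasted list holds 1001 peaks found in neither fed list.

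The second fed list separated the unmatched floxed peaks into 2 kinds. The C57BL/6 fed list held 6773 of the 7727 matched floxed peaks (87.7%) but 4087 of the 9727 unmatched ones (42.0%), and Fisher's exact test over peaks (two-sided) gave 0.102 as the odds ratio with a p too small for the software to represent. Peaks are not replicates, and neighboring peaks are not independent, so this and the tests below compare these lists and not animals. The 4087 peaks called in both fed lists and not in fasted livers made up 23.4% of the floxed list. The other 5640 unmatched peaks, 32.3% of the floxed list, were called in floxed livers alone. They were missing from the C57BL/6 fed list too, which shares the feeding state of the floxed list. Genotype differs between those 2 fed lists, and it cannot be told apart there from any batch, which the sources do not give. Among floxed peaks that the C57BL/6 fed list also held, 62.4% had a fasted peak (interval 61.5 to 63.3), against 14.5% of those it lacked (interval 13.6 to 15.3). The C57BL/6 fed list itself, which shares the fasted list with the floxed comparison, had 51.1% of its peaks without a fasted peak beside 55.7% for the floxed list. Of the 1886 unmatched fasted peaks, 885 were in the C57BL/6 fed list and 1001 (10.4% of all fasted peaks) were in neither fed list.

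Promoters were the 1000 bp before and the 100 bp after any RefSeq transcription start site (TSS), and held 900 unmatched floxed peaks (9.25%) and 373 matched ones (4.83%). The odds ratio was 2.01 (adjusted p = 6.39e-30 by the same exact test). The share differed by presence in the C57BL/6 fed list. Of the unmatched peaks called in floxed livers alone, 12.2% lay in promoters (690 of 5640, interval 11.4 to 13.1), whereas of the unmatched peaks called in both fed lists 5.14% did (210 of 4087, interval 4.50 to 5.86). Within floxed peaks that the C57BL/6 fed list also held, the odds ratio was 1.11 with an adjusted p of 0.268, and with the C57BL/6 fed list in place of the floxed list it was 0.883 with an adjusted p of 0.117. Base composition is given for the same classes. In the 200 bp around the center, the mean GC content was 45.0% ± 5.71 (SD over 7727 matched peaks), 44.4% ± 6.82 (SD over 4087) for unmatched peaks in both fed lists and 51.0% ± 8.96 (SD over 5640) for those in floxed livers alone. Introns held 49.0% of matched and 47.7% of unmatched floxed peaks, and intergenic DNA held 43.5% and 38.9%.

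**Figure D2:**
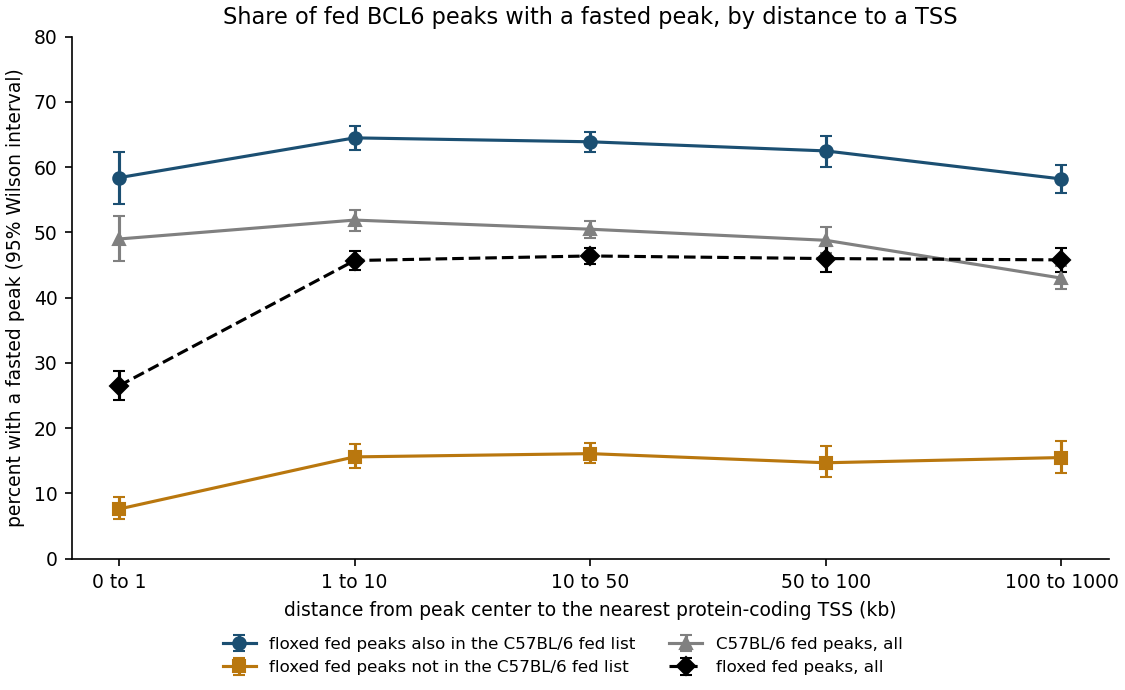
Points give the percent of fed BCL6 peaks that had a fasted peak, with 95% Wilson intervals, by distance from the peak center to the nearest protein-coding TSS in kb, for all floxed fed peaks, for floxed peaks in or not in the C57BL/6 fed list, and for all C57BL/6 fed peaks. The drop to 26.5% of all floxed peaks within 1 kb of a TSS, from 45.7% at 1 to 10 kb, stands beside 58.4% and 64.5% for the floxed peaks that the C57BL/6 fed list also held.

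Near gene starts, the share of floxed peaks with a fasted one is given with and without a C57BL/6 fed peak. Within 1 kb of a protein-coding TSS, 415 of 1568 floxed peaks had a fasted peak (26.5%, interval 24.3 to 28.7), and from 1 kb outward each distance class lay between 45.7% and 46.4%. The C57BL/6 fed list held 582 of these 1568 peaks, of which 340 (58.4%, interval 54.4 to 62.4) had a fasted peak. Of the 986 that it lacked, 75 (7.61%, interval 6.11 to 9.43) had one. Over all C57BL/6 fed peaks the share was 49.0% within 1 kb (interval 45.6 to 52.5) and 51.9% at 1 to 10 kb (interval 50.3 to 53.5). Among the genes of the 19 lists described below, 101 had a floxed peak within 1 kb of the TSS, with 117 peaks in all, of which 42 had a fasted and 55 a C57BL/6 fed peak.

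PPAR peaks were called at unmatched floxed peaks less often than at matched ones, and this held among the peaks found in both fed lists. The study reported that sites bound by both BCL6 and PPARα had the strongest binding of each factor. The lists hold no scores, so peak strength could not be held equal between the classes compared here. In fed livers a PPARα peak lay at 5477 of 9727 unmatched peaks (56.3%) and at 6378 of 7727 matched ones (82.5%), with an odds ratio of 0.273 and an adjusted p of 1.37e-309 by the same test. In fasted livers the PPARα shares were 58.2% and 83.1% (odds ratio 0.282). PPARδ, called at fewer sites, was at 19.0% and 38.1% in fed livers (odds ratio 0.382) and at 3.96% and 10.0% in fasted livers (odds ratio 0.370, adjusted p = 1.90e-57). Restricted to floxed peaks that the C57BL/6 fed list also held, a choice made after these values were seen, the odds ratios were 0.384, 0.308, 0.461 and 0.388 in the same order, with a largest adjusted p of 4.64e-32. PPAR shares also differed by presence in the second fed list. Among unmatched floxed peaks, PPARα in fed livers was at 68.3% of those it held and 47.6% of those it lacked. For PPARδ in fed livers the shares were 23.3% and 15.9%. This difference was not tested. In terms of the receptors, 62.2% of the 4837 floxed peaks with both PPARα and PPARδ had a fasted BCL6 peak, 44.2% of the 8679 with PPARα and no PPARδ, 22.5% of the 102 with PPARδ and no PPARα, and 22.3% of the 3836 with neither.

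**Figure D3:**
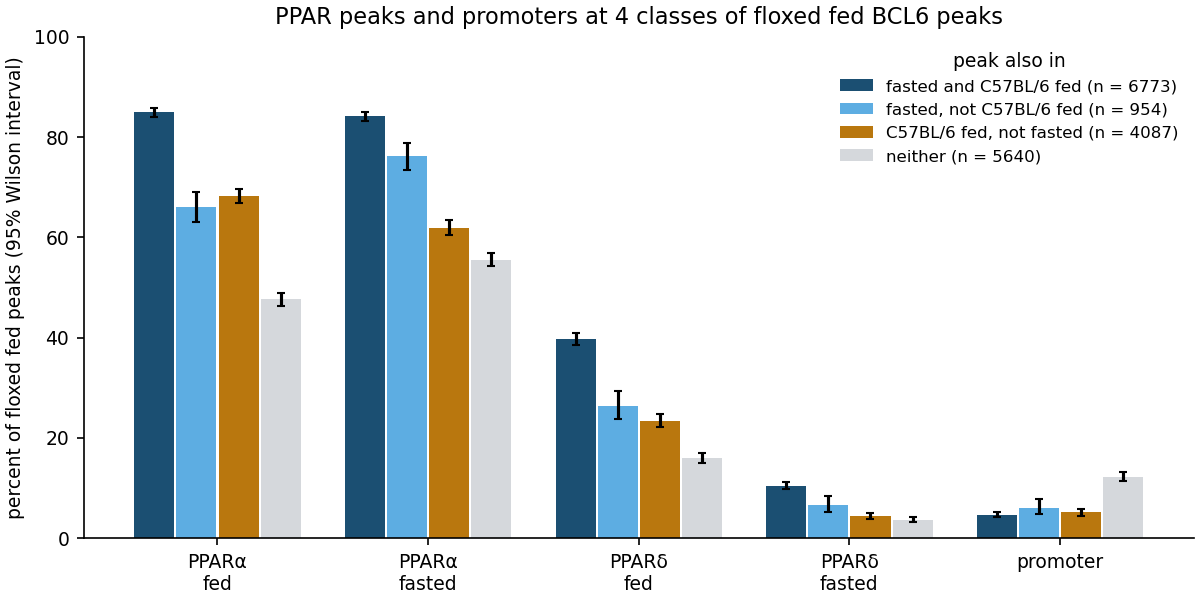
Bars show the percent of floxed fed BCL6 peaks, with 95% Wilson intervals, that held a PPARα or PPARδ peak in fed or fasted livers or lay in a promoter, for the 4 classes of floxed peaks by presence in the fasted and C57BL/6 fed BCL6 lists. Peaks in all 3 BCL6 lists have the highest PPAR shares (84.9% for PPARα in fed livers), and peaks in neither C57BL/6 list the lowest (47.6%) and the highest promoter share (12.2%).

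PPARα calls were also split by feeding state, without a test. Of the 4087 in both fed lists, 54.1% held PPARα in both states, 14.1% when fed only (interval 13.1 to 15.2) and 7.78% when fasted only. Of the 5640 in floxed livers alone, 40.0% held it in both states, 7.68% when fed only and 15.5% when fasted only (interval 14.6 to 16.5). At the 1886 fasted peaks with no floxed match, 5.09% held PPARα when fed only and 18.1% when fasted only. The PPARα lists came from wild type livers, as did the C57BL/6 fed and the fasted BCL6 lists, whereas the floxed list came from Bcl6 fl/fl livers.

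Of 12 DNA elements searched in the central 50 bp on both strands, 4 differed between unmatched and matched floxed peaks, by small amounts. The BCL6 element TTCCTAGAA with at most 1 mismatch was found at 5.55% of unmatched and 6.26% of matched peaks (adjusted p = 0.0959), against 1.64% of windows 1000 bp to either side. It passed the threshold, lower at unmatched peaks, with 200 bp windows (odds ratio 0.823, adjusted p = 6.36e-06), with repeats masked (0.836, adjusted p = 0.0233), with centers matched within 100 bp (0.857, adjusted p = 0.0422) and with the C57BL/6 fed list (0.829, adjusted p = 0.0341). In the other 5 alternatives the odds ratio was also below 1 and the lowest adjusted p was 0.0825. The STAT palindrome TTCNNNGAA, which an exact BCL6 element also meets, was at 4.59% and 5.16% (adjusted p = 0.125). A direct repeat of AGGTCA after 1 base, read by PPAR-RXR, was at 2.95% and 3.05% with at most 2 mismatches (adjusted p = 0.747), against 0.773% in the flanks. The elements past the threshold were those of C/EBP (TTGCGCAA, at most 1 mismatch, 3.12% against 4.52%, adjusted p = 9.80e-06), the glucocorticoid receptor core (ACANNNTGT, 1.77% against 2.89%, adjusted p = 9.80e-06), HNF4 (CAAAGTCCA, at most 1 mismatch, 4.62% against 5.73%, adjusted p = 0.00401) and FOXA (TGTTTAC, 2.92% against 3.65%, adjusted p = 0.0228). All 4 were lower at unmatched peaks, and none passed the threshold among floxed peaks that the C57BL/6 fed list also held. Their flank levels in the same order were 0.547%, 1.46%, 1.53% and 0.630%, so the glucocorticoid core at unmatched peaks was near its flank level.

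ChIP-qPCR regions of the study, 15 at 13 genes placed by their primers, for the most part held peak calls in all 3 BCL6 lists. A floxed peak center lay within 200 bp of 14 of the amplicon centers, a fasted center at 14 and a C57BL/6 fed center at 15. The floxed exception was the region in intron 1 of Cd36, a fatty acid transporter, where the nearest floxed center was 13674 bp away and the fasted and C57BL/6 fed centers were 104 and 64 bp away. The fasted exception was the region in intron 3 of Angptl4, a secreted inhibitor of lipoprotein lipase, where the floxed and C57BL/6 fed centers were 96 and 68 bp away and the nearest fasted center was 4688 bp away. PPARα centers in fasted livers lay 130 bp from the Angptl4 amplicon and 68 bp from the Cd36 amplicon. The study chose these regions for BCL6 and PPARα binding, so their shared calls are a description. By ChIP-qPCR the study reported lower BCL6 binding on fasting at shared sites. A peak call in both feeding states does not measure such a change.

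**Figure D4:**
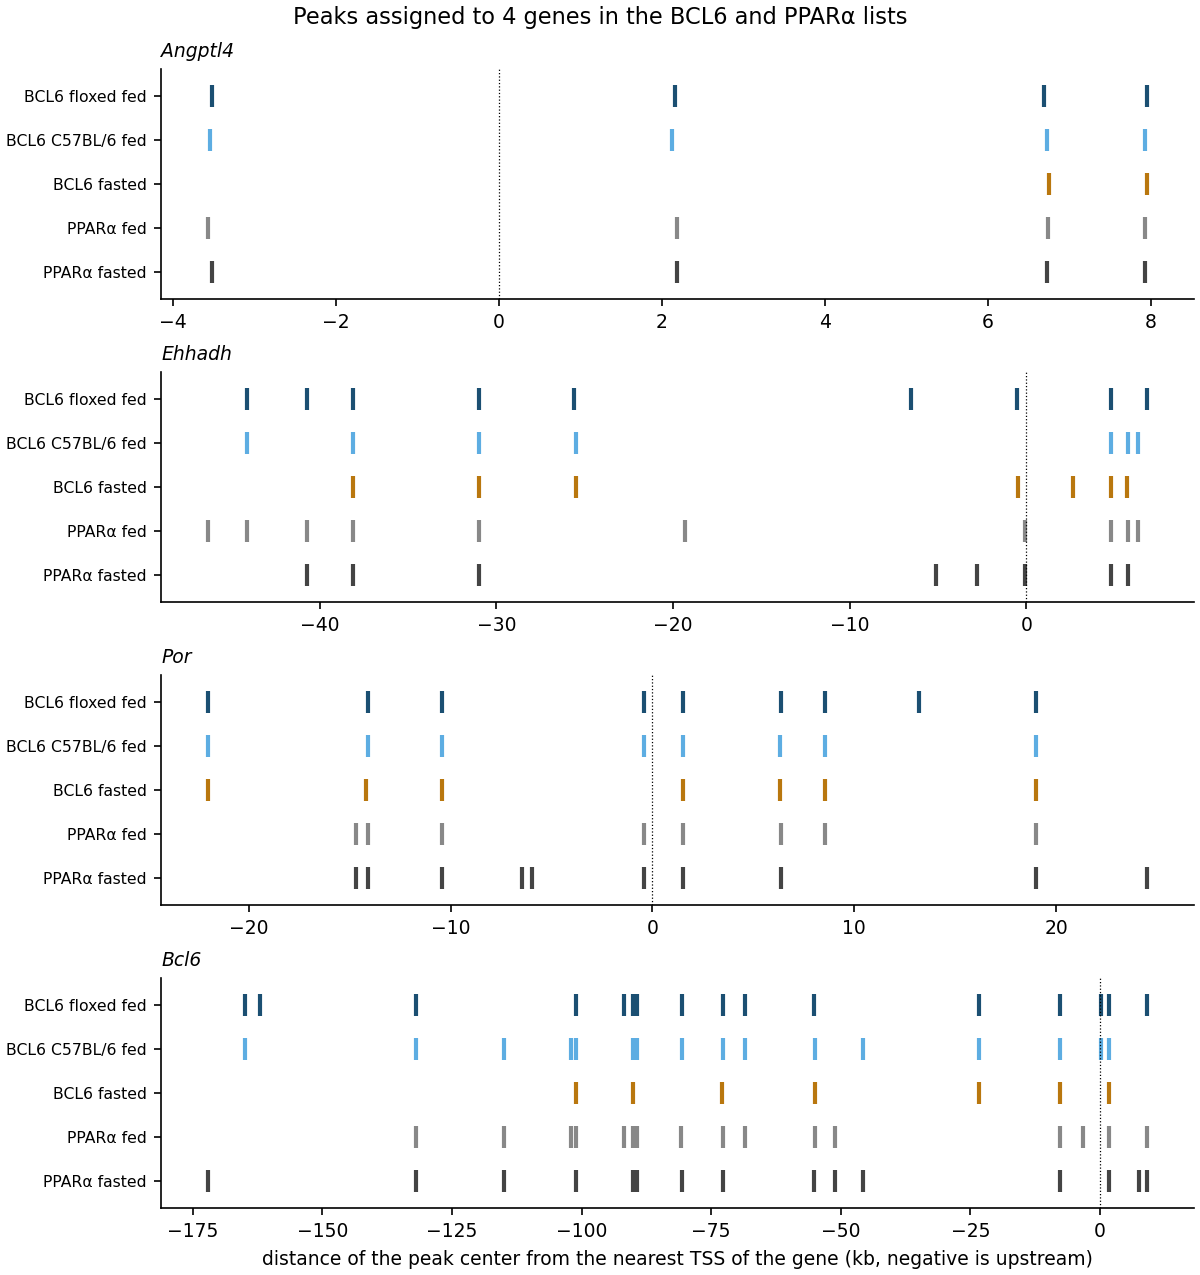
Each panel shows the peak centers assigned to Angptl4, Ehhadh, Por or Bcl6, one row per list (BCL6 in floxed fed, C57BL/6 fed and fasted livers, PPARα in fed and fasted livers), by distance in kb from the nearest TSS of the gene, with negative values upstream. Fasted BCL6 marks are missing at 2 of 4 floxed marks of Angptl4 and at 9 of 16 of Bcl6, while 7 of 9 at Por have one.

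Angptl4 had 4 floxed peaks. The fasted list held those at 6688 and 7954 bp from the TSS and lacked those at -3516 bp and in intron 3. All 4 were in the C57BL/6 fed list, and all 4 had PPARα in fed and in fasted livers. Over floxed peaks in both fed lists, 79.2% of matched and 54.1% of unmatched ones had PPARα in both states. Por, the reductase that supplies electrons to microsomal P450 enzymes, had 9 floxed peaks, and the unmatched ones were the promoter peak printed above and 1 in intron 1 at 13183 bp that the C57BL/6 fed list lacked too. Ehhadh, the peroxisomal bifunctional enzyme, had 9 floxed peaks of which 4 were unmatched, and 1 of these 4 was in the C57BL/6 fed list. The intron 1 peak of Ehhadh at 4823 bp was called in all 7 lists.

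Bcl6 itself had 16 floxed peaks and 7 fasted peaks, all 7 matched. The peak at 259 bp from its TSS in the 5' UTR, chr16:23988492-23988694, was called in both fed lists and not in fasted livers, and no PPAR list held a peak there. The intron 1 peak at 1703 bp and the peak at -7706 bp were called in all 3 BCL6 lists. A peak centered in a coding exon, chr16:23972169-23972371, was called in floxed livers and in neither C57BL/6 list. Its distance of 9013 bp was measured from another annotated TSS of Bcl6 than the 259 bp above. The 12 floxed peaks of Ppara, the gene of the receptor, split into 6 matched and 6 unmatched, and 1 of the 6 unmatched was in the C57BL/6 fed list.

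To see which genes had no BCL6 peak when fasted, peaks were assigned by the nearest TSS of a protein-coding gene, up to 1 Mb away. Of 6630 genes with a floxed peak, 2475 (37.3%) had no fasted peak, and 1265 of these 2475 also had a C57BL/6 fed peak. The C57BL/6 fed comparison, with the same fasted list, gave 2010 of 6087 genes (33.0%). Such genes had few floxed peaks to begin with. No fasted peak was assigned to 1824 of the 3015 genes with 1 floxed peak (60.5%), to 444 of 1385 with 2 (32.1%), to 135 of 776 with 3 (17.4%) and to 72 of 1454 with 4 or more (4.95%). A further 334 genes had fasted peaks and no floxed peak.

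The genes with the most floxed peaks and no fasted peak were Septin9, a cytoskeletal GTPase, with 11, Gse1 with 10, Slc35b3 with 7, and 1600014C23Rik and Lhpp with 6 each. None of the 11 Septin9 peaks was in the C57BL/6 fed list. Of them 9 held a PPARα peak in at least 1 state, and 10 lay in its introns. Over all floxed peaks in neither C57BL/6 list, the shares were 63.1% with PPARα and 47.2% in introns. At Gse1, 1 of 10 floxed peaks was in the C57BL/6 fed list. That list held 4 of 6 at 1600014C23Rik, 4 of 7 at Slc35b3 and 3 of 6 at Lhpp.

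The genes with the most unmatched floxed peaks also had fasted peaks. Bcor, which encodes a corepressor partner of BCL6, had 18 unmatched of 30 floxed peaks, with 5 of the 18 in the C57BL/6 fed list. Myc had 15 of 27, Zmiz1 15 of 22, Irs2, an adaptor of the insulin receptor, 13 of 29, and Lpp 13 of 25. These genes had between 8 and 19 fasted peaks each. At the other end, every floxed peak was matched at Cmah (9 peaks), Agtr1a (8), Cyp7a1 (8), Litaf (8) and Chn2 (7). Cyp7a1 is the rate-limiting enzyme of bile acid synthesis, and its 8 floxed peaks, from -3080 to 36380 bp, all held PPARα in at least 1 state. Over all matched floxed peaks that share was 88.6%. The genes with the most fasted peaks that no floxed peak matched were Lpp with 5 and Dusp6, Epas1, Errfi1 and Fn1 with 4 each. All 4 such peaks of Errfi1, an inhibitor of EGF receptor signaling, were in the C57BL/6 fed list.

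**Figure D5:**
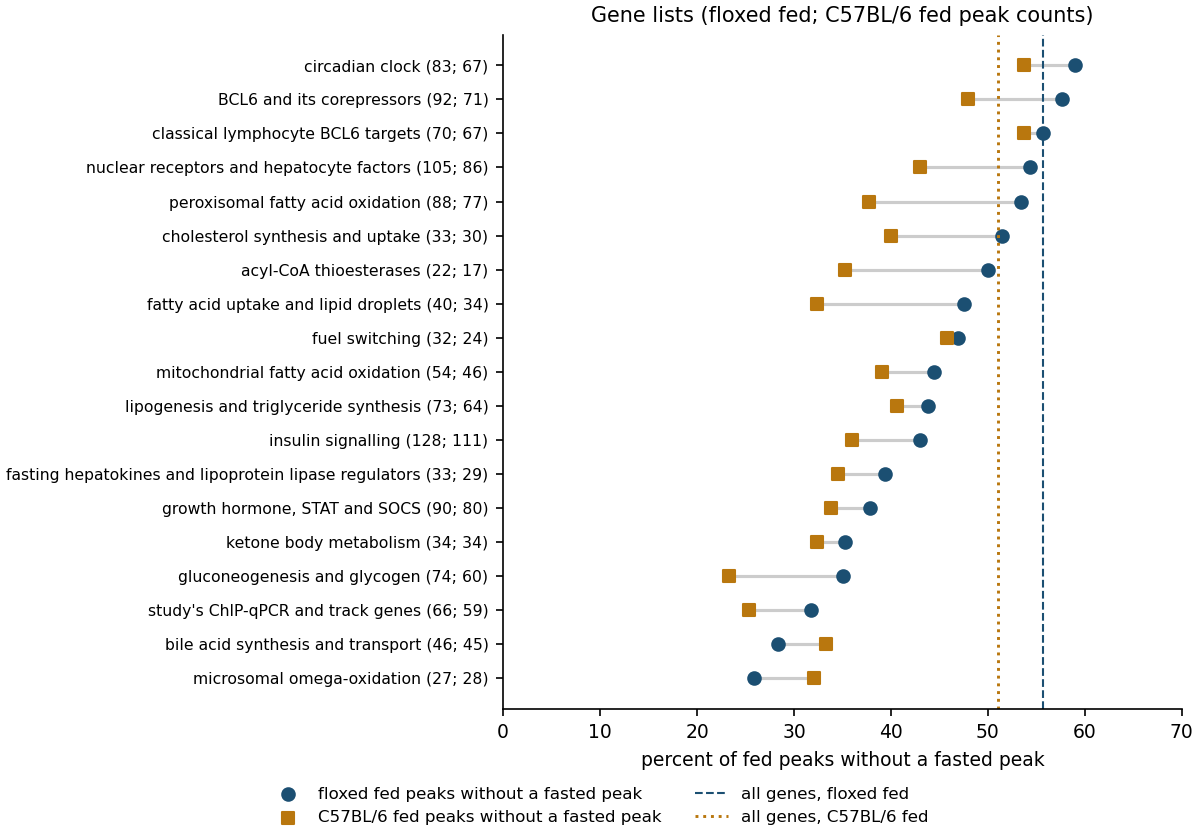
Points give the percent of fed BCL6 peaks without a fasted peak at the genes of 19 lists, with circles for floxed fed and squares for C57BL/6 fed peaks and the number of peaks of each in parentheses, and vertical lines mark the share over all genes. Floxed shares run from 25.9% for microsomal omega-oxidation to 59.0% for the circadian clock, and the floxed share is above the C57BL/6 fed share for 17 of the 19 lists.

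Gene lists were read against the 55.7% of floxed peaks that were unmatched over all genes, with the C57BL/6 fed share (51.0% over all genes) beside each. The 287 listed genes had 1134 floxed peaks, of which 525 (46.3%) were unmatched, and 43 of the 220 with a floxed peak (19.5%) had no fasted peak. These genes had more peaks each than the average gene, and no test was made of any list.

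In the lipid-burning pathways the shares lay below or near the background. Peroxisomal fatty acid oxidation had 47 of 88 floxed peaks unmatched (53.4%) and 37.7% of its C57BL/6 fed peaks without a fasted one. Within it, Acox2 had 1 unmatched of 4 and Crot 2 of 8, whereas Abcd3, a peroxisomal transporter, had 7 of 9 and Nudt7 5 of 7. Mitochondrial oxidation had 24 of 54 unmatched (44.4%, and 39.1% with C57BL/6 fed). Acsl1, which activates fatty acids, had 1 of 12, and Cpt1a, the gate of mitochondrial entry, 2 of 4, where none of 3 C57BL/6 fed peaks lacked a fasted one. Ketone body metabolism had 12 of 34 (35.3%, and 32.4%), acyl-CoA thioesterases 11 of 22 (50.0%, and 35.3%) and microsomal omega-oxidation 7 of 27 (25.9%, and 32.1%). All 4 peaks of Acot4, all 3 of Acot3 and both of Cyp4a10 were matched.

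Lists of glucose, bile acid and lipid synthesis genes lay below the share over all genes. Gluconeogenesis and glycogen had 26 of 74 (35.1%, and 23.3% with C57BL/6 fed), including 0 of 6 at Pck1, the enzyme that commits carbon to gluconeogenesis, and 2 of 8 at G6pc, which releases free glucose. Bile acid synthesis and transport had 13 of 46 (28.3%, and 33.3%), but at Cyp8b1, the sterol 12-hydroxylase, 4 of 5. Lipogenesis and triglyceride synthesis had 32 of 73 (43.8%, and 40.6%). Every floxed peak was unmatched at Acly (3), Acacb (3), Srebf1 (2) and Thrsp (2), genes of fatty acid synthesis and its control, and the C57BL/6 fed list had 1, 2, 0 and 2 peaks there, none with a fasted peak. At Elovl5, a fatty acid elongase, 6 of 9 floxed peaks were matched. Elsewhere in this list 1 of 6 was unmatched at Mlxipl, 1 of 6 at Gpam and 0 of 4 at Fads1. In all, 5 of its 16 genes with a floxed peak had no fasted peak, beside 37.3% over all genes. Of all genes with 2 floxed peaks 32.1% had no fasted peak, and of those with 3, 17.4%. Cholesterol synthesis and uptake had 17 of 33 (51.5%, and 40.0%), and fatty acid uptake and lipid droplets 19 of 40 (47.5%, and 32.4%).

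Among lists of regulators, 4 lay near the share over all genes. The circadian clock had 49 of 83 unmatched (59.0%, and 53.7% with C57BL/6 fed), with Bhlhe40 at 8 of 11, Nr1d2 at 3 of 3 and Rora at 10 of 24. BCL6 and its corepressors had 53 of 92 (57.6%, and 47.9%). Classical lymphocyte targets of BCL6 had 39 of 70 (55.7%, and 53.7%), of which Myc and Id2 gave 25, and Prdm1, the textbook BCL6 target of B cells, had 5 of 9. Nuclear receptors and hepatocyte factors had 57 of 105 (54.3%, and 43.0%), with 3 of 3 at Hnf4a in both fed lists. Growth hormone, STAT and SOCS genes had 34 of 90 (37.8%, and 33.8%), among them 2 of 9 at Socs2 and 6 of 18 at Igf1. Insulin signaling had 55 of 128 (43.0%, and 36.0%), fuel switching 15 of 32 (46.9%, and 45.8%), and fasting hepatokines and lipoprotein lipase regulators 13 of 33 (39.4%, and 34.5%). Genes of the ChIP-qPCR regions and tracks had 21 of 66 (31.8%, and 25.4%).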

How the data were processed

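ChIP-seq was made by the authors from mouse livers, 3 animals per condition. Bowtie alignment to mm10 by the authors kept uniquely placed reads, and 1 read was kept per start position. HOMER then found candidate peaks on pooled libraries against input, and DESeq2, run by the authors on the reads of each library, retained those at least 2-fold over input at a false discovery rate under 0.05. Reads that fit several places were left out, so near-identical copies such as the Acot cluster can lack peaks. The deposited files hold peak positions (chromosome, start, end) and no score, and the order of peaks was not used.

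Centers within 200 bp were matched, the distance that the study used. Positions came from RefSeq on GRCm38.p6, and a gene from the nearest protein-coding TSS within 1 Mb. Fisher's exact tests over peaks, two-sided, compared shares (scipy 1.17.1), with Benjamini-Hochberg adjustment over 7 position and binding tests and over 12 elements. Functions were tested on simulated peaks. Named genes were those of the 19 lists and the 5 genes at the top of each of 4 counts. Members, lists and rules were chosen with earlier results of these data known. Sequences run from the start to the end of a peak, both included, and peaks that overlap an exon of a coding transcript were not printed. Results at 3 genes are not reported here.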

Additional observations from a re-analysis of the deposited data

How the results depend on the processing

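No paired analysis was possible because each list pools its libraries and holds no column per replicate. For the same reason no replicate could be left out, and without scores no stricter peak threshold could be set. The floxed share with a fasted peak was 43.1% at 100 bp and 48.9% for the C57BL/6 fed list, and the fasted share with a fed peak was 78.2% at 100 bp and 81.2% at 400 bp. The promoter odds ratio of 2.01 was 0.883 with the C57BL/6 fed list, on the other side of 1. Within floxed peaks that list also held it was 1.11. Neither passed the threshold by Fisher's exact test (adjusted p = 0.117 and 0.268). The number of elements past the threshold, 4 of 12, was 10 with 200 bp windows, 8 with repeats masked, 5 with the C57BL/6 fed list, 2 outside promoters and 0 both with 1 fewer mismatch (7 elements) and within floxed peaks also in the C57BL/6 fed list. Some element odds ratios left their side of 1 in an alternative, none of them past the threshold there. The AGGTCA repeat was at 1.05 with 1 fewer mismatch and at 1.0, no difference, outside promoters. HNF6 was at 1.09 with the C57BL/6 fed list and 1.24 within the shared fed peaks. With the C57BL/6 fed list FOXA was at 1.02 and ETS at 0.639. C/EBP (1.03) and the reversed BCL6 control (0.794) crossed with 1 fewer mismatch, and CRE (0.984) in 200 bp windows. The reversed control passed the threshold with the C57BL/6 fed list, at 1.72 (adjusted p = 0.0115). The cause was not tested. The C57BL/6 fed and PPAR odds ratios kept their direction and their side of the threshold in every alternative run, and the gene count stayed within 1.5 times of 2475. The 2 restrictions of the floxed peaks were added after the data were seen.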

Other observations

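The share of floxed peaks with a fasted peak is given here by neighborhood and chromosome, without a test. Of 8005 floxed peaks with no other floxed peak within 10 kb, 38.6% had a fasted peak (interval 37.5 to 39.7), and of 1473 with 3 or more such neighbors 52.6% did (interval 50.1 to 55.2). By chromosome the share ran from 38.6% on chromosome 11 to 51.0% on chromosome 13 among the autosomes, and on the X chromosome it was 33.8% of 281 peaks (interval 28.5 to 39.5), 30 of which were assigned to Bcor. Promoters held 5.62% of the 1886 fasted peaks with no floxed match (interval 4.67 to 6.75).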
